A study of Mus musculus with 6 samples.

Results

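The lysosomal hydrolases and membrane proteins described here are 33 of the 29872 genes measured by RNA sequencing of mouse hippocampus. They were chosen by symbol for their known place in the lysosome, with earlier results of these data known. Each symbol matched 1 Ensembl gene identifier, and all 33 were detected in every library. The genes fall into 10 proteases, 7 enzymes that take glycans apart, 8 lipid hydrolases and their activators, 2 sterol exit proteins, 5 membrane proteins and progranulin.

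The study compared 6 libraries, 3 for each group, from hippocampus of C57BL/6J mice. In the shHepaCAM group the labels give the genotype HepaCAM knockdown. An adeno-associated virus (AAV) was delivered to the CA1 field of both hippocampi, with a short hairpin RNA against Hepacam, which encodes an adhesion molecule of astrocytes. The shControl group has the genotype WT in the labels, which do not say whether these mice received a vector. Age, sex, time after injection, the promoter of the vector and any pooling of animals were not given in the sources used here. Nothing ties each library to a mouse of its own, and a p-value reflects only how far these libraries vary, which may be technical.

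Lysosomes are acidic organelles in which soluble hydrolases break down proteins, glycans and lipids delivered by endocytosis, phagocytosis and autophagy. A proton pump acidifies the lumen, heavily glycosylated membrane proteins line it, and the sterol exit proteins pass cholesterol freed from lipoproteins out to the rest of the cell. Many lysosomal genes carry a short promoter sequence to which the transcription factors of the TFEB family bind. In brain the organelle is present in all cells, and microglia, the resident phagocytes, are rich in several cathepsins. Inherited loss of many of these genes causes lysosomal storage disease of the nervous system.

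Values are RPKM (reads per kilobase of gene length, scaled to library depth), as deposited, so levels can be set side by side between genes. Values in series of 3 are those of replicates 1, 2 and 3 in that order. The depth behind them was 14903198 to 17341842 reads in the control libraries and 15816576 to 16384937 reads in the knockdown libraries, and each member rested on 195 to 32647 reads in a library. Hepacam itself averaged 35.6 ± 1.98 RPKM in control and 22.6 ± 1.76 RPKM in knockdown libraries (SD of 3 libraries each), which is -0.63 on the log2 scale (limma adjusted p = 0.00924, 0.0526 when shControl replicate 3 was dropped and 0.0659 when both libraries named next were). Choroid plexus transcripts set shControl replicate 1 and shHepaCAM replicate 3 apart. The summed level of 8 choroid plexus markers was 70.5 and 32.1 RPKM in these libraries, while it reached 4328 RPKM in the other control and 2354 RPKM in the other knockdown libraries. All 8 neuron and all 9 astrocyte markers passed the filter, and their summed levels were at least 701 and 876 RPKM in each library. Such markers are shared by brain regions, so they could not test the label hippocampus.

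Of the 33 members, 7 rose in the knockdown libraries, 0 fell and 26 did not pass the test. The 7 were the proteases Ctsh, Ctsz, Lgmn and Ctsl, the glycan hydrolases Man2b1 and Naglu, and the lipid activator Gm2a. Their levels rose by 26.2% to 67.1%. The test was limma on log2(RPKM + 1) over the 13864 genes that averaged 1 RPKM or more, at a Benjamini-Hochberg adjusted p of 0.05. Over all genes tested, 4.23% were called higher and 1.84% lower, or 587 and 255 genes. After scaling each library to its median gene, these were 336 and 347 genes, and 3 members (Ctsh, Man2b1 and Gm2a) were called higher and 0 lower. At an unadjusted p of 0.05, 17 members were higher and 0 lower, beside 2258 higher and 1098 lower of the 13864 genes. Limma-voom on whole reads worked out from the values called 6 members higher and 0 lower, beside 749 and 329 of all genes. In whole tissue, more cells of a type and more RNA per cell cannot be told apart, and the summed level of 13 microglia markers was 348 to 399 RPKM in control and 607 to 767 RPKM in knockdown libraries; the part of microglia in these changes was not tested.

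Every knockdown library lay above every control library in 19 of the 33 members, against 20.9% of all genes tested. The reverse held for Ctsf and Arsb, against 10.7% of all genes. The median log2 change of the members was 0.17, beside 0.05 over all genes tested, and 28 of the 33 had a change above 0, as did 60.4% of all genes. After that scaling to the median gene the medians were 0.08 and -0.03, and 24 members were above 0.

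**Figure D1:**
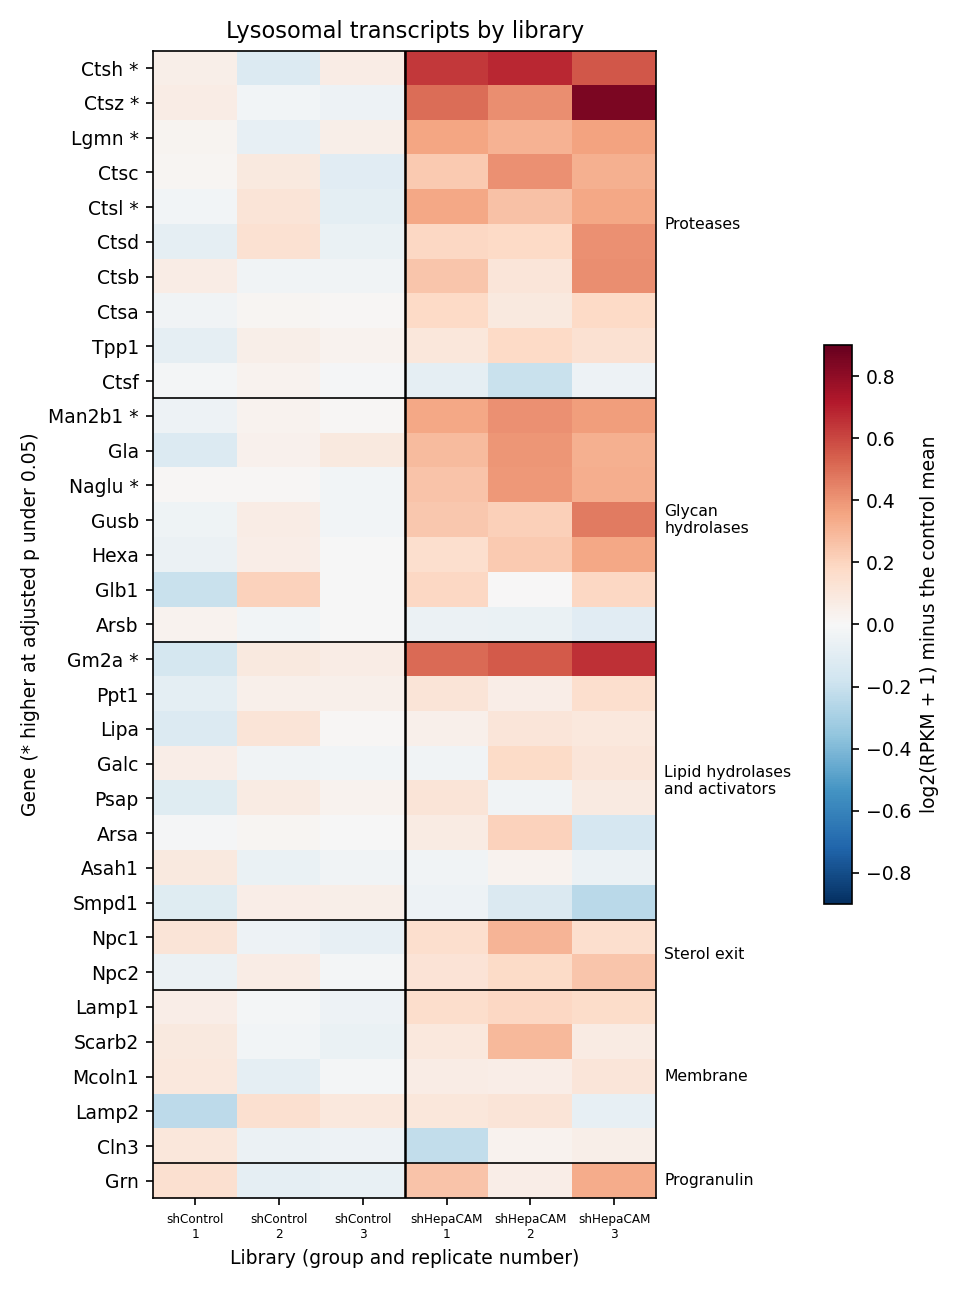
Log2(RPKM + 1) of each of the 33 members (rows, grouped by role) in each of the 6 libraries (columns), as the difference from the mean of the 3 control libraries; red is higher and blue lower, and an asterisk marks members past an adjusted p of 0.05. The 7 marked rows are red in all 3 knockdown libraries, and the lipid and membrane blocks, Gm2a aside, are pale.

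The number of members called depended on the libraries in the fit. Without shControl replicate 1 it was 2, beside 1.38% of all genes called higher, and without shControl replicate 2 and replicate 3 it was 0, beside 0.707% and 0.541%. With shHepaCAM replicate 1, 2 or 3 dropped it was 6, 5 and 3, beside 4.05%, 2.11% and 1.83% of all genes. Without the pair of libraries poor in choroid plexus transcripts it was 0, beside 0.743%. The 7 members then had adjusted p-values of 0.0659 to 0.211, against 0.0513 to 0.121 without shControl replicate 2 and 0.0514 to 0.163 without shControl replicate 3.

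The other settings tried gave 7 members with a pseudocount of 0.1, with a filter at 5 RPKM and with array weights, beside 4.18%, 6.12% and 4.96% of all genes. They gave 6 members with quantile normalization and with limma-voom, beside 2.82% and 5.4%, and 5 with limma without trend and with log2 Ttr, a choroid plexus transcript, as a covariate, beside 3.07% and 3.21%. Median gene scaling, no filter and a replicate block gave 3, 2 and 1, beside 2.42%, 0.405% and 0.808%. The log2 changes of the 7 stayed above 0 in each of the 17 alternatives.

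**Figure D2:**
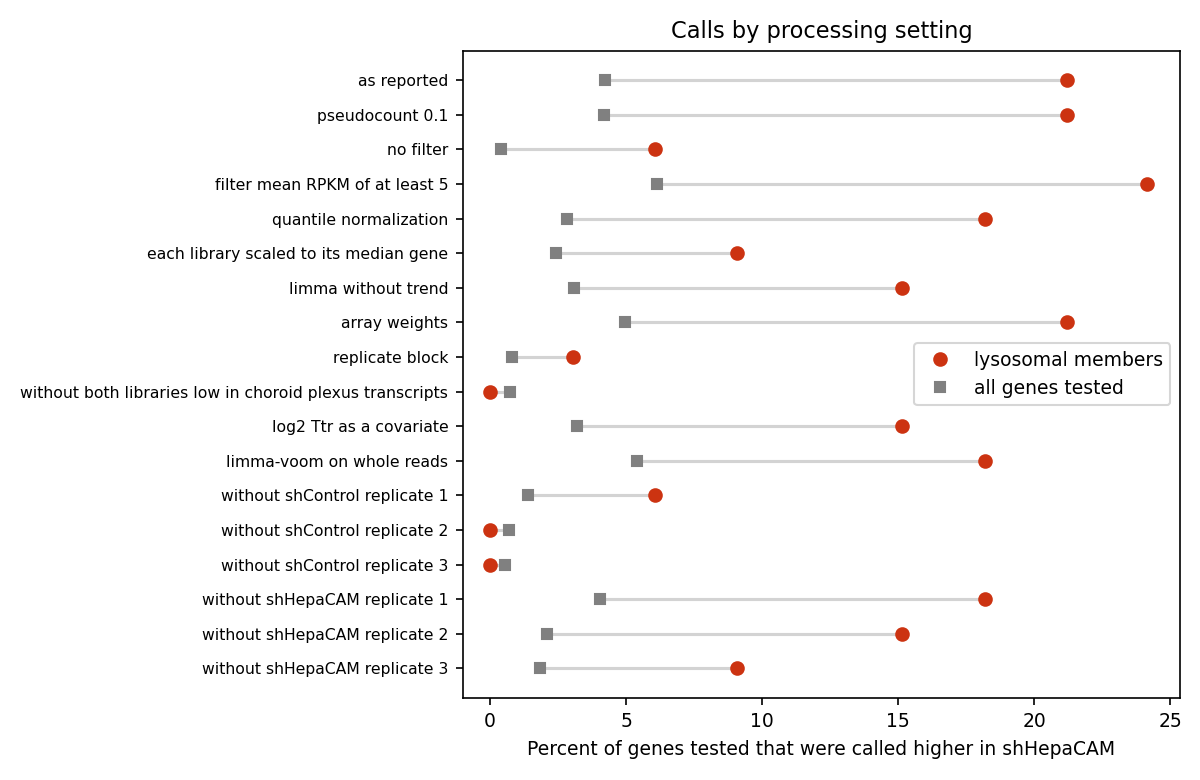
Percent of the lysosomal members tested (red circles) and of all genes tested (grey squares) that were called higher in the knockdown libraries, for the fit as reported and each of 17 alternatives (rows). The red circle lies to the right of the grey square except without shControl replicate 2, without shControl replicate 3 and without both libraries poor in choroid plexus RNA, where 0 members were called.

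Among the proteases, 4 of 10 rose, 0 fell and 6 did not pass, beside 4.23% of all genes called higher and 1.84% lower. Their median log2 change was 0.29. Ctsh (ENSMUSG00000032359) encodes cathepsin H, a cysteine protease that trims the amino ends of peptides. Its level was 4.31, 3.70 and 4.35 RPKM in the control libraries and 6.94, 7.20 and 6.53 RPKM in the knockdown libraries. The groups were well apart, and the mean rose from 4.12 ± 0.364 to 6.89 ± 0.342 RPKM (SD of 3 libraries each; log2 change 0.62, standard error 0.08, limma adjusted p = 0.0119). This was the largest change of any of the 33. Ctsh lost the call without shControl replicate 2 (adjusted p = 0.0513) and without shControl replicate 3 (0.0514).

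Ctsz (ENSMUSG00000016256), cathepsin Z, is a carboxypeptidase found largely in phagocytes and other antigen-presenting cells. It stood at 73.7, 69.2 and 68.0 RPKM in the control libraries and 100.1, 94.3 and 127 RPKM in the knockdown libraries. The knockdown libraries were all higher but spread widely, with a coefficient of variation of 16.3% against 4.32% in control, and shHepaCAM replicate 3 was the highest. The log2 change was 0.59 (standard error 0.11, limma adjusted p = 0.0308), and the call was lost on dropping shControl replicate 1, 2 or 3 (0.0755, 0.111 and 0.12). In GENCODE M21, exons of Ctsz overlap those of Nelfcd on the opposite strand, and whether the counting used strand was not given in the sources used here. If it did not, reads in the shared exon bases cannot be assigned to either gene. How many reads of Ctsz lie there was not tested.

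Lgmn (ENSMUSG00000021190) encodes legumain, which cuts after asparagine and matures several cathepsins. Its values were 58.5, 54.5 and 59.7 RPKM in the control libraries and 73.9, 71.8 and 74.2 RPKM in the knockdown libraries. The 3 knockdown libraries were nearly level, and the gap to the highest control library was wider than the range of either group. The log2 change was 0.34 (standard error 0.06, limma adjusted p = 0.0217). The call was lost on dropping shControl replicate 1, 2 or 3 (0.0678, 0.0942 and 0.0858) or shHepaCAM replicate 3 (0.0595). Ctsl (ENSMUSG00000021477), cathepsin L, a broad endopeptidase, went from 14.8, 16.4 and 14.1 RPKM to 19.5, 18.4 and 19.4 RPKM (log2 change 0.32, standard error 0.07, limma adjusted p = 0.0467). Its call was lost in 13 of 17 alternatives, with any 1 library left out among them (adjusted p of 0.0736 to 0.163). Exons of Ctsl overlap those of the predicted genes Gm49230, on the same strand, and Gm47123, on the opposite one.

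The most abundant proteases did not pass. Ctsb, cathepsin B, was at 126, 118 and 118 RPKM in control and 144, 130.4 and 162 RPKM in knockdown libraries (log2 change 0.26, standard error 0.09, limma adjusted p = 0.127). Ctsd, cathepsin D, the main aspartic protease of the organelle, was at 90.7, 105 and 92.1 RPKM in control and 109, 109 and 128 RPKM in knockdown libraries (log2 change 0.26, adjusted p = 0.138 in limma). In both genes every knockdown library lay above every control library, as in 20.9% of all genes tested. For both, shHepaCAM replicate 3 was the highest library. Ctsb passed only with quantile normalization (adjusted p = 0.045), of 17 alternatives.

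Ctsc, cathepsin C, which activates the serine proteases of immune cells, was at 3.45, 3.68 and 3.10 RPKM in control and 4.19, 4.84 and 4.50 RPKM in knockdown libraries (log2 change 0.32, limma adjusted p = 0.082). Ctsa, the protective protein of beta-galactosidase and neuraminidase, and Tpp1, a tripeptidyl peptidase whose loss causes a form of Batten disease, had log2 changes of 0.15 and 0.14. Their knockdown libraries all lay above their control libraries, as in 20.9% of all genes tested. Ctsf, cathepsin F, was lower in each knockdown than in each control library, as were 10.7% of all genes tested. It averaged 29.9 ± 0.607 RPKM in control and 27.7 ± 1.59 RPKM in knockdown libraries (SD of 3 libraries each, log2 change -0.11, limma adjusted p = 0.317).

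**Figure D3:**
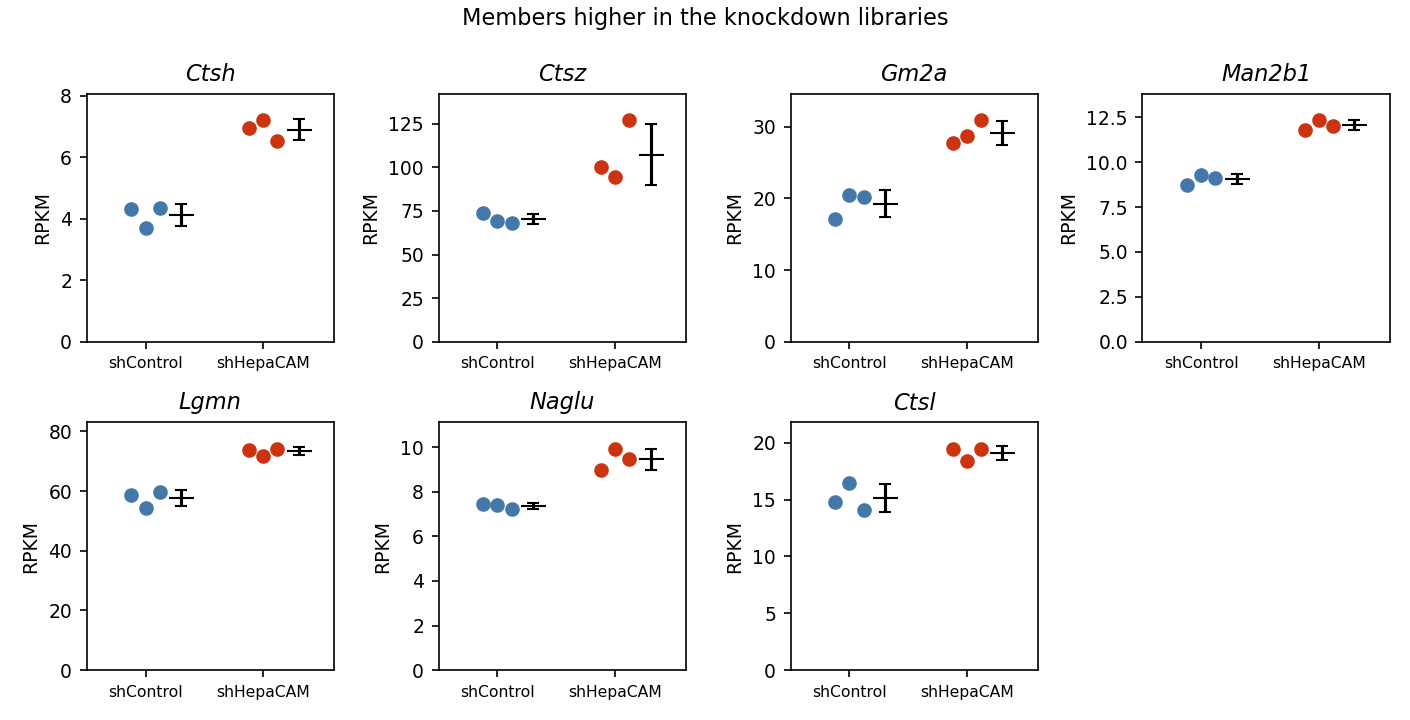
RPKM of the 7 members called higher, 1 panel each with its own axis from 0; dots are single libraries, and the bar beside them is the mean with the SD (n = 3). In each panel all 3 shHepaCAM dots lie above all 3 shControl dots; Ctsz has the widest knockdown spread.

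Among the 7 enzymes that take glycans apart, 2 rose, 0 fell and 5 did not pass, with a median log2 change of 0.31. The shares of all genes called higher and lower were 4.23% and 1.84%. Man2b1 (ENSMUSG00000005142), lysosomal alpha-mannosidase, stood at 8.76, 9.29 and 9.12 RPKM in the control libraries and 11.8, 12.4 and 12.0 RPKM in the knockdown libraries. Both groups were tight, with coefficients of variation of 2.99% and 2.27%, and the mean was 33.2% higher in knockdown (log2 change 0.38, standard error 0.06, limma adjusted p = 0.0192). Naglu (ENSMUSG00000001751), which removes N-acetylglucosamine from heparan sulfate, went from 7.43, 7.42 and 7.22 RPKM to 8.97, 9.93 and 9.46 RPKM (log2 change 0.32, standard error 0.06, limma adjusted p = 0.0356). The control libraries were almost equal, and every knockdown library was higher. With shControl replicate 1, 2 or 3 dropped, the adjusted p of Man2b1 was 0.0666, 0.0759 and 0.0892 and that of Naglu 0.099, 0.121 and 0.136. Without shHepaCAM replicate 3 these were 0.052 and 0.0889, and Naglu also lost the call without shHepaCAM replicate 2 (adjusted p = 0.069).

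Gla, Gusb and Hexa did not pass. In each, every knockdown library lay above every control library, as in 20.9% of all genes tested. Gla, alpha-galactosidase A, the Fabry disease gene, was at 3.49, 4.03 and 4.19 RPKM in control and 4.96, 5.45 and 5.10 RPKM in knockdown libraries (log2 change 0.33, limma adjusted p = 0.0661). Gusb, beta-glucuronidase, was at 4.50, 4.91 and 4.56 RPKM and at 5.70, 5.57 and 6.80 RPKM (log2 change 0.31, limma adjusted p = 0.0905). Hexa, the Tay-Sachs disease gene, was at 29.4, 31.8 and 30.5 RPKM and at 34.1, 36.1 and 39.2 RPKM (log2 change 0.25, limma adjusted p = 0.082). Glb1, beta-galactosidase, varied more within the control libraries (6.59 to 9.07 RPKM) than between the group means of 7.79 and 8.56 RPKM. Arsb, the sulfatase of dermatan sulfate, was at 9.55 ± 0.213 and 9.04 ± 0.181 RPKM (SD of 3 libraries each; log2 change -0.07, limma adjusted p = 0.49).

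Among the 8 lipid hydrolases and their activators, Gm2a rose, 0 fell and 7 did not pass, beside 4.23% of all genes called higher and 1.84% lower. Their median log2 change was 0.07, close to the 0.05 of all genes tested. Gm2a (ENSMUSG00000000594) encodes the activator that lifts the ganglioside GM2 out of the membrane for digestion. It stood at 17.1, 20.5 and 20.2 RPKM in the control libraries and 27.8, 28.7 and 30.9 RPKM in the knockdown libraries. The groups were well apart, and the mean was 51.2% higher in knockdown (log2 change 0.57, standard error 0.08, limma adjusted p = 0.016). Gm2a lost the call in 4 of 17 alternatives, among them without shControl replicate 2 (adjusted p = 0.0518) and without shControl replicate 3 (0.0622); Ctsh also lost it in 4.

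The other members of the group had log2 changes from -0.14 to 0.11. Psap, the precursor of the saposins that present sphingolipids to their hydrolases, was the most abundant member and made up 44.4% of the summed control RPKM of all 33. It was at 604, 686 and 664 RPKM in control and 705, 638 and 689 RPKM in knockdown libraries, with overlapping groups (log2 change 0.06, standard error 0.08, limma adjusted p = 0.705). Smpd1, acid sphingomyelinase, was at 33.7 ± 2.27 and 30.5 ± 2.17 RPKM (SD of 3 libraries each; log2 change -0.14, limma adjusted p = 0.316). Asah1, acid ceramidase, Galc, which removes galactose from myelin lipids, Arsa, the sulfatide sulfatase, and Lipa, which hydrolyses cholesteryl esters and triglycerides, had log2 changes of -0.02, 0.08, 0.04 and 0.08 and overlapping groups. Ppt1, which strips palmitate from proteins, had a change of 0.11 (limma adjusted p = 0.331). Its knockdown libraries all lay above its control libraries, as in 20.9% of all genes tested. Under at least 1 alternative the sign of Psap, Asah1, Galc and Arsa turned.

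Neither sterol exit gene passed. Both were higher at an unadjusted limma p of 0.05, beside 2258 of all 13864 genes tested. In both, every knockdown library lay above every control library, as in 20.9% of all genes tested. Npc2, the soluble protein that takes cholesterol from the lumen, was at 16.9, 18.3 and 17.3 RPKM in control and 19.1, 19.8 and 21.0 RPKM in knockdown libraries (log2 change 0.18, standard error 0.06, limma adjusted p = 0.139). Npc1, the membrane protein that receives it, was at 6.99, 6.12 and 5.99 RPKM and at 7.17, 8.08 and 7.17 RPKM (log2 change 0.20, standard error 0.08, limma adjusted p = 0.194). The lowest knockdown and the highest control library of Npc1 differed by less than the spread within either group. Limma-voom called 0 of the pair.

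None of the 5 membrane proteins passed in limma, 1 at an unadjusted p of 0.05 and 0 in limma-voom, and their median log2 change was 0.08. Lamp1, the abundant glycoprotein of the lysosomal membrane, was at 81.8, 77.7 and 76.3 RPKM in control and 87.7, 89.3 and 88.4 RPKM in knockdown libraries. Every knockdown library lay above every control library, as in 20.9% of all genes tested. The difference was small (log2 change 0.17, standard error 0.05, limma adjusted p = 0.107). Lamp2, which also serves chaperone-mediated autophagy, had overlapping groups. Its lowest library of each group was one of those poor in choroid plexus transcripts (9.0 RPKM in shControl replicate 1 and 10.2 RPKM in shHepaCAM replicate 3). These libraries were the lowest of their groups in 12.8% of all genes tested. Scarb2, the receptor that carries glucocerebrosidase to the lysosome, Mcoln1, a calcium-permeable channel, and Cln3, the juvenile Batten disease gene, had log2 changes of 0.15, 0.08 and -0.04 and overlapping groups. The signs of Lamp2, Mcoln1 and Cln3 turned under at least 1 alternative. Grn, progranulin, a secreted growth factor that is cut into granulins in lysosomes, was at 41.3, 35.2 and 35.4 RPKM in control and 44.6, 38.8 and 47.2 RPKM in knockdown libraries, with overlapping groups (log2 change 0.22, standard error 0.09, limma adjusted p = 0.215).

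The members covered a wide range of levels, from 2.30 RPKM for Galc to 651 RPKM for Psap as control means, with a median of 15.1 RPKM. Control means of the 7 called members ran from 4.12 RPKM for Ctsh to 70.3 RPKM for Ctsz. Replicates of one group were close: the coefficient of variation over members had a median of 5.56% in control and 5.59% in knockdown libraries, with a highest value of 15.9% (Glb1) and 16.3% (Ctsz). In the pair of libraries poor in choroid plexus transcripts, Arsa, Lamp2 and Smpd1 were the lowest of their group in both, and Cln3, Ctsb, Ctsz, Grn and Mcoln1 the highest in both. These were 3 and 5 of 33 members, beside 12.8% and 12.9% of all genes tested.

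The promoters of the members were searched for the E-box CACGTG, the core of the element that TFEB-family factors bind, for the longer TCACGTGA, and for the full palindrome known as the CLEAR element, which extends the latter by a base at each end. All read the same on both strands, and each longer form contains the shorter. Windows ran from 250 bases before to 50 bases after each RefSeq start on build GRCm38.p6, and 29 of the 33 members matched by symbol, all but Asah1, Npc1, Ctsh and Ctsb. The core stood in at least 1 window of 12 of these 29 genes (41.4%), in 11.9% of the tested genes with a window and in 8.09% of all genes in the table. TCACGTGA stood in 5 of the 29 (Ctsa, Cln3, Ctsd, Mcoln1 and Gla; 17.2%), beside 2.19% of tested genes, and the CLEAR palindrome in Cln3 alone, beside 0.791%. The core occurred in 3 of the 6 called members with a window (Naglu, Lgmn and Ctsl) and in 9 of the 23 others, so members with the core were found on both sides of the threshold. A match is a run of letters and not a bound site, and binding was not measured. Many lysosomal genes are known for this element, so its share among the members is no result of the knockdown.

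In the annotation GENCODE M21, on the same assembly, the 250 bases before the RefSeq start ran into an exon in many members, Naglu and Ctsl among them, and no sequence is shown for these. In the Cln3 window with the CLEAR palindrome, all 250 of these bases were exonic. In the windows of Ctsd, Gla, Ctsa and Mcoln1 with TCACGTGA, 211, 197, 164 and 62 of them were. Of the windows with no exonic base, 5 are shown, to set Lgmn and Lamp1, which hold the core, beside the called members Gm2a, Man2b1 and Ctsz, which do not. They lie at chr12:102439093-102439342 (minus strand) for 1 of 2 starts of Lgmn, chr8:13158911-13159160 (plus strand) for Lamp1, chr11:55097735-55097984 (plus strand) for Gm2a, chr8:85083019-85083268 (plus strand) for Man2b1 and chr2:174439040-174439289 (minus strand) for Ctsz, all on GRCm38.p6 and read 5′ to 3′ along the gene. That start of Lgmn lies inside the gene as GENCODE M21 draws it, and which start is used in hippocampus was not measured. The deposited values were made on another build, mm39. Capitals mark CACGTG, whose first base lies 49 bases before the start in Lgmn and 61, 45, 28 and 15 bases before it in Lamp1.
Lgmn: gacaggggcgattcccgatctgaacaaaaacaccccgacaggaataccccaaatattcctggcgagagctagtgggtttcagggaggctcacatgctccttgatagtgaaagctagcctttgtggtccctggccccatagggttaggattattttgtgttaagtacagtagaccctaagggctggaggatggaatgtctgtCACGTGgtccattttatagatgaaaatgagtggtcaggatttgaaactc
Lamp1: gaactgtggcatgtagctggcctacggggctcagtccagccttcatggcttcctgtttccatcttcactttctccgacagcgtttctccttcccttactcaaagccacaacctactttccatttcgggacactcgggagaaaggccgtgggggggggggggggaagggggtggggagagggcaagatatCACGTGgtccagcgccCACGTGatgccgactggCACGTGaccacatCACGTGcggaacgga
Gm2a: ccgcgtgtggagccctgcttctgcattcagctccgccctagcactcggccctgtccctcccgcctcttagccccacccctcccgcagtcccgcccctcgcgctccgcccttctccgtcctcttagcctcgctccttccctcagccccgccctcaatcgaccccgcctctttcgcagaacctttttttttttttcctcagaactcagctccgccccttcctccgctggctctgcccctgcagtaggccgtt
Man2b1: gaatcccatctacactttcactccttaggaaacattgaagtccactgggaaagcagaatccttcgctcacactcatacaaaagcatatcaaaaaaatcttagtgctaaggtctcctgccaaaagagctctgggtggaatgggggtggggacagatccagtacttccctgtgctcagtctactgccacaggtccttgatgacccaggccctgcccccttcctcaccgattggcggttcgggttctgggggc
Ctsz: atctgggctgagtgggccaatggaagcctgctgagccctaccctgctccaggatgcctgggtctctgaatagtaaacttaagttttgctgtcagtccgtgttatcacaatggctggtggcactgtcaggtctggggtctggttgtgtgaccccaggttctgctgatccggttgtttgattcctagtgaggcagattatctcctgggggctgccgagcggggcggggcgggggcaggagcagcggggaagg

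Other lysosomal genes were read from 5 lists of 75 genes in all, of which 72 were tested, 4 rose and 1 fell, shares near the 4.23% and 1.84% of all genes tested. Of 23 other hydrolases tested, Ctss and Plbd2 rose, 0 fell and 21 did not pass (median log2 change 0.13). Ctss, cathepsin S, a microglial protease that processes the invariant chain of class II molecules, was at 97.9, 89.0 and 85.2 RPKM in control and 169, 188 and 194 RPKM in knockdown libraries. It rose by 103% (log2 change 1.01, standard error 0.08, limma adjusted p = 0.0031), more than any of the 33 members, and passed in all 17 alternatives. Plbd2, a phospholipase B-like enzyme whose exons overlap those of Sds on the opposite strand, averaged 16.5 ± 0.680 RPKM in control and 23.0 ± 2.25 RPKM in knockdown libraries (SD of 3 libraries each; log2 change 0.45, limma adjusted p = 0.027).

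Of 19 other membrane proteins, 1 rose, 0 fell and 18 did not pass (median 0.09), near the 4.23% of all genes called higher and 1.84% lower. Laptm5, a transmembrane protein of blood and microglial cells, rose by 0.59 on the log2 scale (18.8 ± 1.97 to 28.8 ± 3.06 RPKM, SD of 3 libraries each, limma adjusted p = 0.0245). Cd68, the macrophage sialomucin, was at 22.9, 20.1 and 23.3 RPKM in control and 34.9, 27.6 and 43.1 RPKM in knockdown libraries, with a log2 change of 0.63 that missed the threshold (limma adjusted p = 0.0558). Of 3 cystatins tested, inhibitors of cysteine cathepsins, Cst7 rose by 1.99, 0 fell and 2 did not pass. Cst7, which encodes cystatin F of immune cells, was at 9.66, 4.8 and 7.89 RPKM in control and 26.0, 28.0 and 42.9 RPKM in knockdown libraries (standard error 0.26, limma adjusted p = 0.0115). Cst3, cystatin C, was far more abundant, at 839 ± 39.0 and 986 ± 97.6 RPKM (SD of 3 libraries each; log2 change 0.23, limma adjusted p = 0.199). With shControl replicate 1, 2 or 3 dropped, the adjusted p of Plbd2 was 0.0662, 0.103 and 0.113. Laptm5 lost the call without shControl replicate 2 (0.0973) and without shControl replicate 3 (0.101), and both lost it without shHepaCAM replicate 2 (0.0538 and 0.0695) and shHepaCAM replicate 3 (0.0728 and 0.0661). Cst7 lost it without shControl replicate 3 (0.0526).

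The V-ATPase is the proton pump of the organelle. Of 17 subunits and accessory proteins, 16 had a log2 change below 0, beside 39.6% of all genes tested, and the median was -0.18. None passed in limma, with 8 lower and 1 higher at an unadjusted p of 0.05, beside 1098 lower and 2258 higher of all 13864 genes tested. Limma-voom called Atp6v0e2 lower, beside 329 of all genes. Calls, all lower, numbered 3 with quantile normalization, 2 without shHepaCAM replicate 1, 1 with array weights, 1 with the filter at 5 RPKM and 0 in the other 12 alternatives. In 11 of the 17 every knockdown library lay below every control library, against 10.7% of all genes. Atp6v0e2, a membrane-sector subunit, was at 149, 155 and 159 RPKM in control and 130.3, 96.5 and 117 RPKM in knockdown libraries (log2 change -0.43, standard error 0.11, limma adjusted p = 0.0627). Atp6v1a, the catalytic subunit, was at 89.4, 86.1 and 85.5 RPKM and at 77.0, 72.6 and 76.0 RPKM (log2 change -0.21, standard error 0.05, limma adjusted p = 0.0664). The median of the pump list was below 0 in each of the 17 alternatives, from -0.27 to -0.12, while that of the members was above 0, from 0.08 to 0.20.

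**Figure D4:**
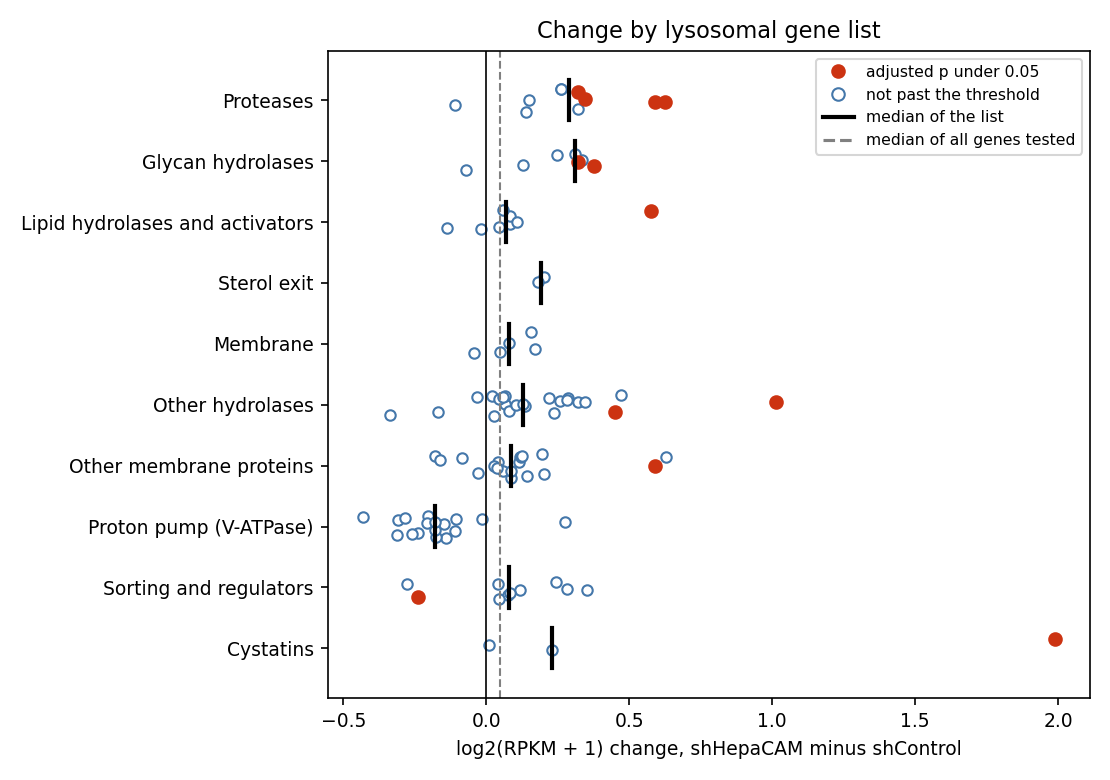
Log2(RPKM + 1) change (horizontal axis) of each gene tested in 5 of the member groups and in the 5 lists of other lysosomal genes; red dots passed an adjusted p of 0.05, open dots did not, black bars are list medians and the dashed line is the median of all genes tested, 0.05. Proteases and glycan hydrolases have medians of 0.29 and 0.31, and the V-ATPase has one of -0.18.

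Of 10 genes of enzyme sorting and lysosomal gene regulation, 1 fell, 0 rose and 9 did not pass (median 0.08). The shares of all genes called lower and higher were 1.84% and 4.23%. The gene that fell was Sort1, the sorting receptor sortilin, whose exons overlap those of Gm12523 on the opposite strand. Sort1 was at 89.0, 88.4 and 87.3 RPKM in control and 74.1, 72.0 and 77.7 RPKM in knockdown libraries (log2 change -0.24, standard error 0.05, limma adjusted p = 0.0475). It lost the call in 11 of 17 alternatives, with any 1 library left out among them (adjusted p of 0.0692 to 0.16).

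Markers of cell types were read in the same libraries. No gene stood in both a marker list and a lysosomal list. Among all genes tested, 4.23% were called higher and 1.84% lower, and the median log2 change was 0.05. Of 13 microglia markers 8 rose and 0 fell, with a median log2 change of 0.59 and their summed level as given above. Of 8 markers of infiltrating macrophages and dendritic cells 3 were tested and 2 rose (summed 30.4 to 33.4 and 67.0 to 93.2 RPKM). Cd209a of that list was at 0 in shControl replicate 3 and shHepaCAM replicate 1. Of 7 B and plasma cell markers 3 were tested and 2 rose (summed 1.19 to 1.92 and 20.5 to 95.0 RPKM), with Ms4a1 at 0 in shControl replicates 1 and 2 and Pou2af1 at 0 in shControl replicate 1. Of 7 T cell markers 2 were tested and both rose (summed 1.42 to 2.21 and 5.67 to 8.86 RPKM).

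Of 8 neuron markers 3 fell and 0 rose (summed 1059 to 1092 RPKM in control and 701 to 880 RPKM in knockdown libraries). Of 9 astrocyte markers 1 fell and 0 rose (summed 876 to 973 and 876 to 980 RPKM). Among all genes tested, 1.84% were called lower. The 8 oligodendrocyte (918 to 1148 and 953 to 1436 RPKM), 7 vascular (61.7 to 77.8 and 58.9 to 79.5 RPKM) and 8 choroid plexus markers had 0 calls in limma and in limma-voom, with 1, 0 and 0 at an unadjusted p of 0.05. The part of these cell types in the changes of the lysosomal genes was not tested.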

How the data were processed

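The authors deposited RPKM values, 1 file per library. Per the submitters' processing notes, TopHat2 2.0.12, Bowtie2 2.0.6 and build mm39 were used; counter, annotation and strand use were not given in the sources used here. Gene names (29805 of 29872 identifiers) and exon lengths came from GENCODE M21, which is on another build. Depth and reads were worked out from the RPKM steps, whole within 0.01 read in every library for 27390 genes by exon length and for all but 2 with a length of their own. Groups came from library titles; no pair of libraries was within sampling noise (chi-square per degree of freedom of at least 3.89).

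The test was limma 3.58.1 with trend in R 4.3.3 on log2(RPKM + 1) of genes averaging 1 RPKM or more, Benjamini-Hochberg adjustment over all genes tested; it was tested on simulated data. Fold changes on this scale understate low genes. No set test was run. All 33 members are named, with values by library for those past the threshold, near it or most abundant; list genes were named when past it, or by smallest p. Another gene that the rule allows is not reported here but counts in the totals. The members and lists were chosen with earlier results of these data known. Alternatives were other pseudocounts, filters, scalings, weights, limma without trend, a replicate block, log2 Ttr as a covariate, limma-voom and leaving out libraries. Correlations of same-numbered libraries did not show a pairing, but they cannot exclude a shared batch. Figures used matplotlib 3.10.9.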

Additional observations from a re-analysis of the deposited data

How the results depend on the processing

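The number of members called higher (7) was 2 with no filter, 3 with median gene scaling, 1 with a replicate block, 0 without the pair of libraries poor in choroid plexus transcripts and 0 to 6 with 1 library left out; 0 were called lower in any alternative. Other lysosomal genes called higher (4) were 2 with no filter, 2 with the block, 2 without both choroid-poor libraries, 8 with limma-voom and 1 to 4 with 1 library left out. Those called lower (1) were 0 with no filter, without trend, with the block, without both choroid-poor libraries and with the Ttr covariate, 2 with a filter at 5 RPKM, with array weights and with limma-voom, 4 with quantile normalization and 0 to 3 with 1 library left out. All genes called higher (587) were 121 with no filter, 391 with quantile normalization, 336 with median gene scaling, 112 with the block, 103 without both choroid-poor libraries and 75 to 561 with 1 library left out. All genes called lower (255) were 48 with no filter, 153 without trend, 45 with the block, 17 without both choroid-poor libraries and 23 to 326 with 1 library left out. Fits with fewer libraries or the block have fewer residual degrees of freedom, and the fit with no filter tested 29872 genes. The part of either in these shifts was not tested, nor was the cause of the others.

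With the replicate block Gm2a alone of the members was called. Deviations of same-numbered libraries from their group means correlated at -0.21, 0.015 and -0.145, and not every library correlated best with its own number. The highest correlation, 0.269, joined shControl replicate 1 and shHepaCAM replicate 3, the libraries poor in choroid plexus transcripts. With 3 libraries in a group, these correlations cannot tell whether same-numbered libraries shared a batch.

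Over all alternatives, 485 log2 changes of members kept direction and call, 55 lost the call, 1 gained it and 16 turned sign, none of them in a called member. With quantile normalization Galc, Arsa, Lamp2 and Cst3 were at -0.0091, -0.011, -0.0054 and -0.013. With median gene scaling Arsa, Psap, Lamp2 and Mcoln1 were at -0.039, -0.032, -0.034 and -0.0037. Without both choroid-poor libraries Glb1, Asah1, Psap and Lamp2 were at -0.0042, 0.042, -0.0089 and -0.0099. With 1 library left out, Asah1 ranged from -0.050 to 0.025, Arsa from -0.039 to 0.14, Lamp2 from -0.070 to 0.12 and Cln3 from -0.094 to 0.044.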
